A study of Mus musculus with 114 samples.

Results

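C1qa, C1qb, C1qc, Mrc1, Cd163, Lyve1, Timd4, Folr2, F13a1 and Cbr2 are genes commonly used to mark tissue-resident macrophages, and their expression was examined here in RNA of isolated fat cells. The 10 genes were taken by symbol from a table of 29132 genes. The libraries came from cells that float after collagenase digestion of perigonadal white fat, the adipocyte fraction, of 38 mice (C57BL/6J, male). Chow (CD) or high fat food (HFD) was given for 8, 20 or 34 weeks to mice that were 6 weeks old at the start, with 6 CD and 6 HFD mice at 8 weeks, 6 and 6 at 20 weeks, and 8 and 6 at 34 weeks. Strain and sex were shared by all groups, no allele or transgene is named in the labels, and time on diet cannot be told apart from age or cohort. For CD the paper names alternative control formulas without saying which mice received which, and the part of the formula was not tested. Mice were fasted before harvest. Each mouse is 1 value per gene, in which the authors had merged 3 technical replicates.

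Resident macrophages of adipose tissue live around blood vessels and between adipocytes, take up debris, iron and lipid, and are partly replaced or joined by cells derived from blood monocytes when fat expands. C1qa, C1qb and C1qc encode the 3 chains of C1q, the recognition molecule that starts the classical complement pathway. Mrc1 (CD206, a mannose receptor), Cd163 (the scavenger receptor for haemoglobin bound to haptoglobin), Lyve1 (a hyaluronan receptor also present on lymphatic vessels), Timd4 (a phosphatidylserine receptor for dying cells) and Folr2 (folate receptor beta) are proteins of the cell surface. F13a1 encodes the A subunit of the transglutaminase factor XIII, and Cbr2 encodes a carbonyl reductase.

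Expression is given as CPM, the reads of a gene per 1000000 reads on genes, and tests used log2(CPM + 1) with limma, a linear model fitted to all 6 groups together. A gene was called where its adjusted p-value was under 0.05, with the Benjamini-Hochberg adjustment made across the 10343 genes whose mean on that scale was above 2.0. Of the 10 markers 9 passed this filter. Timd4, with a mean of 1.495, did not, and its fold changes come from a fit without the filter. Each mouse had 9275711 to 15480388 reads on genes, so that a single read was worth 0.0646 to 0.108 CPM. At 8 weeks the HFD libraries were all deeper (13201234 to 15480388 reads) than the CD libraries (10562845 to 12611013), and the part of depth in the 8 week results was not tested. The fraction was taken as adipocytes, and 10 adipocyte genes summed to a median of 41415 CPM in 8 week CD mice and 13284 CPM in 34 week HFD mice. The markers described here are used to mark macrophages, and which cells of the fraction their RNA came from was not tested. RNA of 13 core macrophage genes (Csf1r, Cd68, Ptprc and others) was also present, from a median sum of 438 CPM in 8 week CD mice to 11182 CPM in 34 week HFD mice. In bulk RNA fewer macrophages and less RNA per macrophage cannot be told apart.

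HFD mice had more C1q and Folr2 RNA than CD mice at every time. Cd163 was lower in HFD mice at 20 weeks, and limma called no other marker lower at any time. At 8 weeks 5 of the 9 markers tested were called higher in HFD mice (C1qa, C1qb, C1qc, Folr2 and F13a1), where 29.8% of all genes tested were called higher, and 0 were called lower, where 15.1% of all genes were. At 20 weeks 4 were called higher (C1qa, C1qb, C1qc and Folr2) beside 38.3% of all genes, and Cd163 was called lower beside 18.7%. At 34 weeks 5 were called higher (the 3 C1q genes, Mrc1 and Folr2) beside 27.5% of all genes, and 0 were called lower beside 15.7%. The median log2 fold change of the 9 markers was 1.18, 0.99 and 1.13 at 8, 20 and 34 weeks, against 0.11, 0.14 and 0.07 over all genes tested. TMM scaling moved the median of all genes at 20 weeks to -0.07 and the markers called there to 4 higher and 2 lower, with Lyve1 (log2 fold change -1.34, adjusted p = 0.0272) as the added call. Over all genes that scaling changed the calls from 3957 higher and 1937 lower to 2718 and 3356 at 20 weeks, from 3083 and 1565 to 2339 and 2212 at 8 weeks, and from 2840 and 1628 to 2320 and 2149 at 34 weeks. The edgeR quasi-likelihood test on the recovered reads called 2 markers higher at 8 weeks, C1qb and C1qc, and DESeq2 called 4 there. At 34 weeks edgeR called 3 higher and 2 lower (Cd163 and Cbr2), and DESeq2 4 and 3, with Lyve1 as the added lower call.

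**Figure D1:**
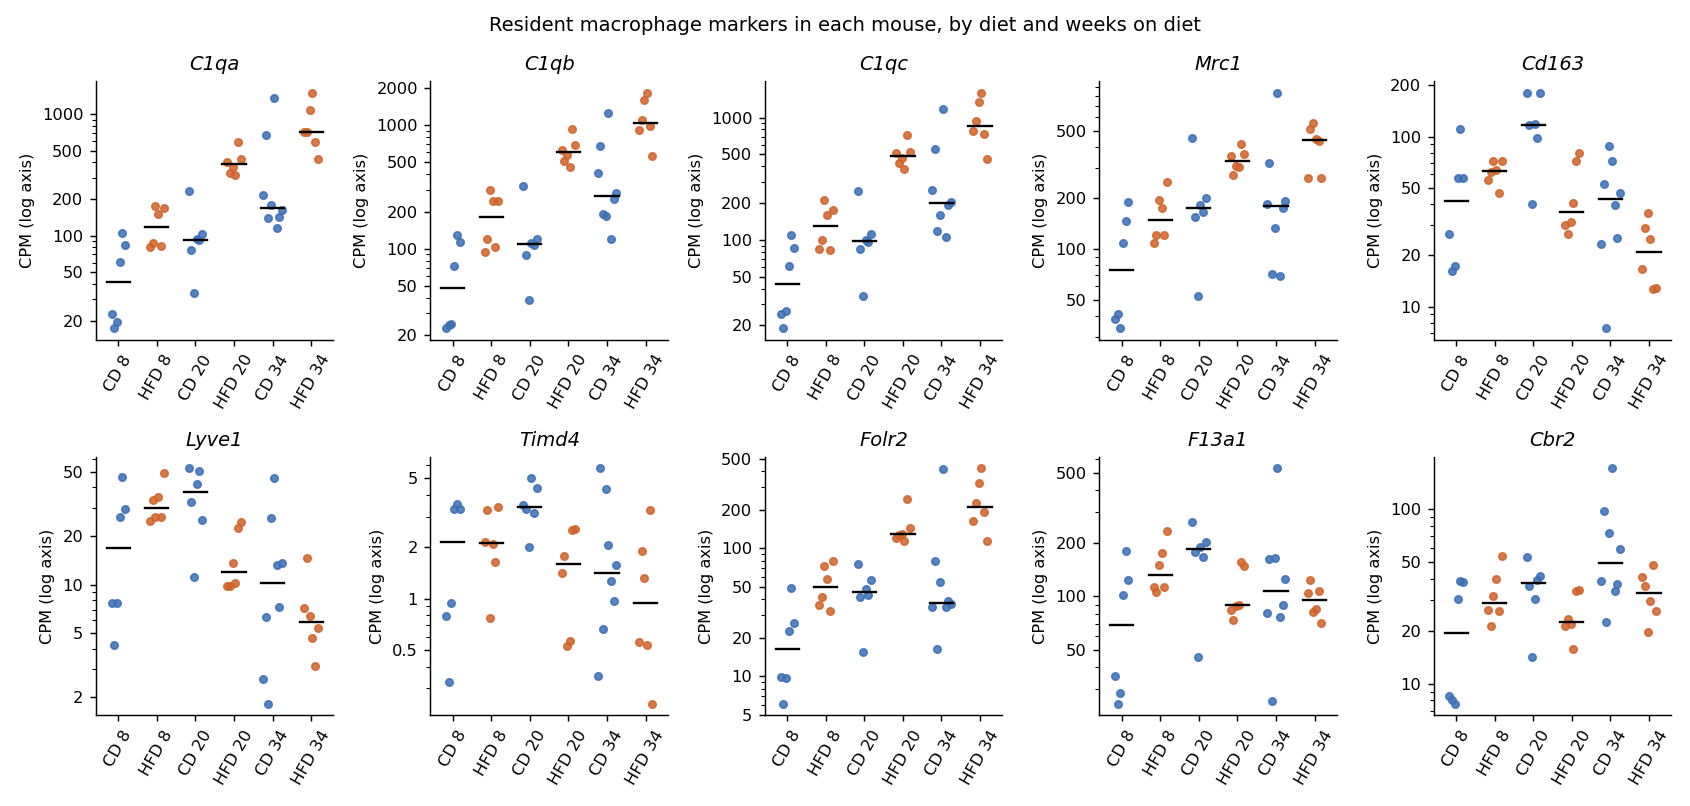
CPM (log axis) of each marker in each of the 38 mice, by diet and weeks on diet, with CD mice in blue, HFD mice in orange and a black line at the median of the group. All 6 HFD mice lie above all 6 CD mice at 20 weeks for C1qa, C1qb, C1qc and Folr2, and the 8 CD mice at 34 weeks spread the most for these genes.

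Mouse by mouse, no marker separated the diets at 8 or 34 weeks, and at 20 weeks the markers did so about as often as all genes. The markers share their mice and vary together, so these counts are not of 10 separate observations. The shares of all genes are of those that passed the filter, which Timd4 did not. At 8 weeks no marker had all HFD mice on one side of all CD mice, whereas 22.8% of all genes tested did. At 20 weeks 4 of the 10 markers did, beside 37.2% of all genes. At 34 weeks again 0 of 10 did, beside 2.46% of all genes, a share too small to compare in 10 markers. In the 8 week CD group mice 1, 2 and 3 were the lowest 3 mice for all 10 markers, and mouse 5 was the highest for 9 of them. In the 34 week CD group mouse 5 was the highest for 8 of 10. Core macrophage genes moved with these mice, with sums of 204 to 296 CPM in 8 week CD mice 1 to 3 against 581 to 1302 in mice 4 to 6, and 10687 CPM in 34 week CD mouse 5 against a group median of 3827. Their part in the spread of the markers was not tested.

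**Figure D2:**
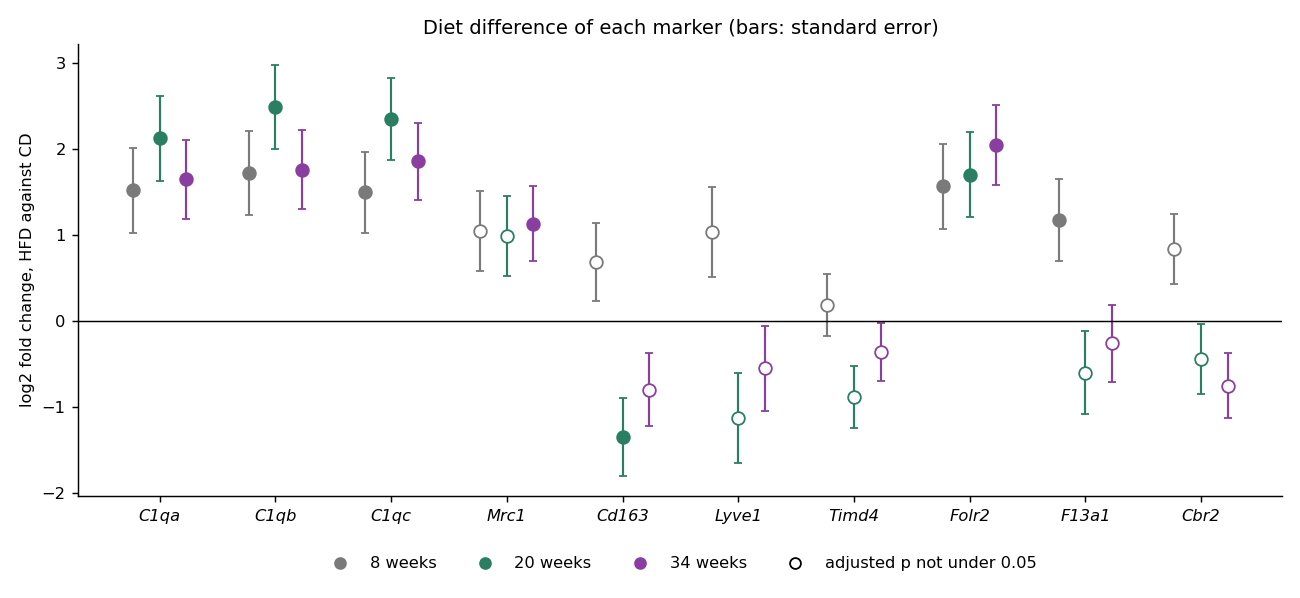
Log2 fold change of HFD against CD for each marker at 8 (grey), 20 (green) and 34 weeks (purple), with standard errors as bars and filled points where the adjusted p was under 0.05. The 3 C1q genes, Mrc1 and Folr2 lie above 0 at every time, while Cd163, Lyve1, Timd4, F13a1 and Cbr2 lie above 0 at 8 weeks and below 0 at 20 and 34 weeks.

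The 3 C1q genes stand next to each other on the minus strand of chromosome 4 (GRCm38), C1qb at 136880126 to 136886200, C1qc at 136889801 to 136892936 and C1qa at 136895916 to 136898844. C1qb, the B chain, ranged from 22.9 to 128 CPM in 8 week CD mice with a median of 48.6, and from 94.3 to 301 in HFD mice with a median of 180. At 20 weeks it ranged from 38.7 to 324 CPM (median 109) in CD and from 462 to 937 (median 603) in HFD mice. At 34 weeks it ranged from 120 to 1258 CPM (median 265) in CD and from 558 to 1822 (median 1039) in HFD mice. The diets overlapped at 8 and 34 weeks and not at 20 weeks, and the upper end of the 34 week CD range is mouse 5. The log2 fold change of C1qb was 1.72 (SE 0.49, adjusted p = 0.00526) at 8 weeks, 2.50 (SE 0.49, adjusted p = 6.27e-05) at 20 weeks and 1.76 (SE 0.46, adjusted p = 0.00276) at 34 weeks. All 6 HFD mice lay above the CD mean at each time.

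C1qa, the A chain, had means of 51.5 ± 37.6 and 124 ± 45.3 CPM (SD, n = 6 each) in CD and HFD mice at 8 weeks. At 20 weeks they were 105 ± 67.7 and 406 ± 103 CPM (n = 6 each), and at 34 weeks 373 ± 437 (n = 8) and 838 ± 389 CPM (n = 6). The corresponding log2 fold changes were 1.52 (SE 0.49, adjusted p = 0.0130), 2.13 (SE 0.49, adjusted p = 0.000466) and 1.65 (SE 0.46, adjusted p = 0.00486). The SD of the 34 week CD group was larger than its mean, and mouse 5 of that group had 1355 CPM against a median of 170. C1qc, the C chain, followed with log2 fold changes of 1.497 (SE 0.473, adjusted p = 0.0109), 2.35 (SE 0.47, adjusted p = 8.74e-05) and 1.86 (SE 0.44, adjusted p = 0.00135). Its medians were 43.9 and 130 CPM in CD and HFD mice at 8 weeks, 98.2 and 487 at 20 weeks, and 200 and 855 at 34 weeks. The C1q calls of all 3 times passed with every mouse left out in turn. C1qa missed the threshold in edgeR at 8 weeks (adjusted p = 0.0708) and at 34 weeks (adjusted p = 0.0508).

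The levels of the chains were compared within each mouse. The ratio of C1qb to C1qa CPM was 1.21 ± 0.0881 (SD, n = 6) in 20 week CD mice and 1.55 ± 0.0447 (n = 6) in 20 week HFD mice, with ranges of 1.16 to 1.39 and 1.47 to 1.60 that did not overlap. At 8 weeks the ratio was 1.24 ± 0.136 in CD and 1.43 ± 0.213 in HFD mice. At 34 weeks it was 1.35 ± 0.399 (n = 8) and 1.41 ± 0.171 (n = 6). The lowest and the highest value of all, 0.928 and 1.91, were both in the 34 week CD group. These ratios were not tested, and how many other pairs of genes separate the diets in their ratio was not examined.

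Promoter sequence from RefSeq (GRCm38.p6, 250 bases before to 50 bases after the start of transcription) was found for 8 of the 10 genes, with 10 promoters in all since Folr2 and F13a1 have 2 each. C1qa and Lyve1 are named only. The promoters of C1qb and C1qc, neighbours that rose together, and of Cd163, which was called lower at 20 weeks, are shown so that they can be compared, 5′ to 3′ on the gene's strand. Capitals mark the PU.1 core GAGGAA on either strand. PU.1 is the myeloid transcription factor encoded by Spi1.
C1qb (chr4:136886151-136886450, minus strand): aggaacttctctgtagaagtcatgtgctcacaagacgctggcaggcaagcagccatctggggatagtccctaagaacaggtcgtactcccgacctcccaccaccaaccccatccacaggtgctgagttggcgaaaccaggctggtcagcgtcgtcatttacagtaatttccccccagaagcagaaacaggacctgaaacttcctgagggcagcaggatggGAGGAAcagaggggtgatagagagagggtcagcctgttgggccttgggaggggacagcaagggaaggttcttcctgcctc
C1qc (chr4:136892865-136893164, minus strand): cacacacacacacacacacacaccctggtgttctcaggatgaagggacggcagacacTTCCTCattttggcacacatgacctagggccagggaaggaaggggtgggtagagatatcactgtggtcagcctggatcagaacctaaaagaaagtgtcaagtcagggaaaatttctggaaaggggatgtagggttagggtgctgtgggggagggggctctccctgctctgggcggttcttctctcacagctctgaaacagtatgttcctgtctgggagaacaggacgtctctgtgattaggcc
Cd163 (chr6:124304401-124304700, plus strand): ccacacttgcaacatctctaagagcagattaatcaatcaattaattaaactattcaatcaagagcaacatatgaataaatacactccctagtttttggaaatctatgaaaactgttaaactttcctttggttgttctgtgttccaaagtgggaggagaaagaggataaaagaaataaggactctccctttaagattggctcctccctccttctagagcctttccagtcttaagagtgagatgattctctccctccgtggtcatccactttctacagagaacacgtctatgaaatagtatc
C1qb holds a PU.1 core 30 bases before the start. C1qc holds a PU.1 core 193 bases before the start on the opposite strand, and Cd163 holds none. The core did not follow the direction of the diet difference over the other promoters. Mrc1 holds 3, both Folr2 promoters hold 0 although Folr2 was called higher at every time, both F13a1 promoters and Cbr2 hold at least 1, and Timd4 holds 0. Over the 10 promoters, 6 held the PU.1 core, against 28.3% of 32851 RefSeq promoters, and 0 held the TATA box TATAAA, against 13.6%. A match of letters is a description and not a bound site.

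Folr2, the receptor that binds folate with high affinity on macrophages, was called higher in HFD mice at all 3 times. It lies on chromosome 7 (101839988 to 101857190, minus strand), and an antisense gene, Gm10602, overlaps its exons, so reads of both may be mixed because the strand setting of the counting is not given in the sources used here. It ranged from 6.12 to 49.2 CPM (median 16.2) in CD and from 32.2 to 80.0 (median 49.4) in HFD mice at 8 weeks. At 20 weeks it ranged from 15.6 to 75.2 CPM (median 45.5) in CD and from 113 to 240 (median 128) in HFD mice, without overlap. At 34 weeks it ranged from 16.4 to 411 CPM (median 37.6) and from 113 to 418 (median 208). A single CD mouse, mouse 5 with 411 CPM, lay inside the HFD range at 34 weeks, and the next highest CD mouse had 78.9 CPM. The log2 fold changes were 1.57 (SE 0.49, adjusted p = 0.0106), 1.70 (SE 0.49, adjusted p = 0.00389) and 2.05 (SE 0.46, adjusted p = 0.000850) at 8, 20 and 34 weeks. edgeR did not call it at 8 weeks (adjusted p = 0.0628).

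Mrc1, the mannose receptor, lies on chromosome 2 (14229414 to 14332023, plus strand). It stood at 93.1 ± 65.7 CPM in CD and 161 ± 54.2 in HFD mice at 8 weeks, 201 ± 134 and 337 ± 51.6 at 20 weeks, and 248 ± 251 and 414 ± 125 at 34 weeks (SD). Its log2 fold changes of 1.04 (SE 0.47, adjusted p = 0.0663), 0.99 (SE 0.47, adjusted p = 0.0683) and 1.13 (SE 0.44, adjusted p = 0.0343) were alike in size, and the third passed the threshold. That call was lost without any of 34 week CD mice 3, 4 or 6 or HFD mice 2, 3, 4 or 5 (adjusted p = 0.0560 to 0.0845), and in edgeR (adjusted p = 0.190) and DESeq2 (adjusted p = 0.170). At 20 weeks Mrc1 passed without CD mouse 1 (adjusted p = 0.0197), the mouse with 454 CPM against a group median of 174, and without 34 week CD mouse 5 (adjusted p = 0.0381). At 8 weeks it passed without any of 8 week CD mice 5 (adjusted p = 0.0396) and 6 (0.0255), 20 week CD mouse 3 (0.04998) and 34 week CD mouse 5 (0.0358).

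Cd163 (chromosome 6, 124304636 to 124330529, plus strand) took the opposite direction at 20 weeks. It ranged from 16.2 to 110 CPM (median 41.9) in CD and from 46.6 to 71.8 (median 62.8) in HFD mice at 8 weeks. At 20 weeks it ranged from 40.0 to 181 CPM (median 118) in CD and from 26.6 to 80.4 (median 36.0) in HFD mice. At 34 weeks it ranged from 7.48 to 88.4 CPM (median 43.2) in CD and from 12.7 to 35.7 (median 20.8) in HFD mice. All 6 HFD mice lay below the CD mean at 20 weeks and again at 34 weeks, and 3 of them lay below every CD mouse at 20 weeks. The log2 fold change was 0.69 (SE 0.45, adjusted p = 0.212) at 8 weeks, -1.35 (SE 0.45, adjusted p = 0.0113) at 20 weeks and -0.80 (SE 0.42, adjusted p = 0.123) at 34 weeks. The 20 week call held with each mouse left out (adjusted p = 0.00299 to 0.0306) and under every other alternative. The 34 week value passed in edgeR (adjusted p = 0.0327) and DESeq2 (adjusted p = 0.0167), and without CD mouse 3 (adjusted p = 0.0226), which had the lowest value of 7.48 CPM.

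Lyve1 (chromosome 7, 110850607 to 110862953, minus strand) ranged from 4.24 to 46.6 CPM (median 16.9) in CD and from 24.6 to 48.8 (median 29.9) in HFD mice at 8 weeks. At 20 weeks it ranged from 11.2 to 52.3 CPM (median 37.2) in CD and from 9.76 to 24.5 (median 11.9) in HFD mice. At 34 weeks it ranged from 1.83 to 45.5 CPM (median 10.3) and from 3.12 to 14.7 (median 5.88). No HFD mouse reached the CD mean at 20 weeks, although the ranges overlapped. The log2 fold changes were 1.04 (SE 0.53, adjusted p = 0.107), -1.13 (SE 0.53, adjusted p = 0.0652) and -0.55 (SE 0.49, adjusted p = 0.371). The 20 week value passed under TMM scaling, median-of-ratios scaling, edgeR and DESeq2 (adjusted p = 0.0195 to 0.0366). It also passed without 20 week CD mouse 3 (adjusted p = 0.0267), 20 week HFD mouse 6 (adjusted p = 0.04996) or 34 week CD mouse 5 (adjusted p = 0.0441), a mouse outside the comparison that enters through the spread shared by all groups. At 8 weeks Lyve1 passed without CD mouse 5 (adjusted p = 0.0397). The 34 week value of Lyve1 passed in DESeq2 (adjusted p = 0.0441). Lyve1 also marks lymphatic endothelium, for which 7 other genes summed to 5.48 to 19.8 CPM in CD and 16.5 to 69.6 CPM in HFD mice at 20 weeks. Of these Ccl21b was at 0 in all mice and Pdpn alone, a gene that fibroblasts also express, passed the filter. Pdpn rose at 20 weeks (log2 fold change 2.20, adjusted p = 0.000166). This gene alone cannot speak for lymphatic cells, and the part of such cells in the Lyve1 values was not tested.

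Timd4 (chromosome 11, 46810786 to 46844333, plus strand) was the lowest marker, at 0.244 to 5.71 CPM over the 38 mice, which is 3 to 66 reads per mouse. Its medians were 2.14 and 2.10 CPM in CD and HFD mice at 8 weeks, 3.41 and 1.58 at 20 weeks, and 1.42 and 0.942 at 34 weeks. At 20 weeks 4 of 6 HFD mice lay below every CD mouse. The log2 fold changes were 0.18 (SE 0.36, adjusted p = 0.793), -0.88 (SE 0.36, adjusted p = 0.0532) and -0.36 (SE 0.34, adjusted p = 0.489), which the added 1 CPM makes smaller than the change in CPM. In edgeR and DESeq2 without the filter the 20 week values were -1.40 (adjusted p = 0.0467) and -1.35 (adjusted p = 0.0387). In limma it passed without any of 8 week CD mouse 2, 20 week CD mouse 3, 20 week HFD mice 5 and 6, 34 week CD mice 1, 2 and 4 and 34 week HFD mouse 5 (adjusted p = 0.0383 to 0.0469).

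F13a1 (chromosome 13, 36867178 to 37050244, minus strand) encodes the enzyme chain that cross-links fibrin and matrix proteins, and its exons overlap the antisense gene Gm30489. It rose at 8 weeks (82.8 ± 63.8 CPM in CD and 149 ± 49.4 CPM in HFD mice, SD, log2 fold change 1.18, SE 0.48, adjusted p = 0.0455). That call was lost without any of 8 week CD mice 1, 2 or 3 or HFD mice 3, 4 or 6 (adjusted p = 0.0743 to 0.133), under TMM scaling (adjusted p = 0.0615) and in edgeR (adjusted p = 0.216). Median-of-ratios scaling, DESeq2 and the fit with no filter also called 4 markers higher at 8 weeks in place of 5. At 20 weeks the levels were 175 ± 71.8 and 107 ± 35.7 CPM and the log2 fold change -0.60 (SE 0.48, adjusted p = 0.292). At 34 weeks they were 157 ± 157 and 95.7 ± 19.7 CPM, with a log2 fold change of -0.26 (SE 0.45, adjusted p = 0.655). The last value turned to 0.058 without CD mouse 5, which had 529 CPM.

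Cbr2 (chromosome 11, 120729485 to 120732025, minus strand) ranged from 7.67 to 38.8 CPM (median 19.5) in CD and from 21.3 to 54.0 (median 29.1) in HFD mice at 8 weeks. At 20 weeks it ranged from 14.3 to 53.4 (median 37.6) and from 15.9 to 34.5 (median 22.6), and at 34 weeks from 22.5 to 171 (median 48.9) and from 19.8 to 47.7 (median 33.0). The groups overlapped at every time. Its log2 fold changes were 0.84 (SE 0.41, adjusted p = 0.0895), -0.44 (SE 0.41, adjusted p = 0.358) and -0.75 (SE 0.38, adjusted p = 0.106). At 8 weeks Cbr2 passed without CD mouse 5 (adjusted p = 0.0378) or 6 (adjusted p = 0.0381). The 34 week value passed without CD mouse 3 (adjusted p = 0.0480), in edgeR (adjusted p = 0.0266) and in DESeq2 (adjusted p = 0.0135).

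Whether the diet difference itself changed with time was tested with interaction terms. Between 8 and 20 weeks 0 of 9 markers were called by limma, with 4 at an unadjusted p under 0.05, 0 in edgeR and 1 in DESeq2, beside 2.81% of all genes called higher and 1.67% lower. The largest terms were those of Lyve1 (log2 -2.17, SE 0.74, adjusted p = 0.0738), Cd163 (-2.04, SE 0.64, adjusted p = 0.0556), F13a1 (-1.78, SE 0.68, adjusted p = 0.0995) and Cbr2 (-1.28, SE 0.57, adjusted p = 0.146). Between 20 and 34 weeks 0 were called, by limma, edgeR or DESeq2 and with 0 at an unadjusted p under 0.05, beside 4.22% of all genes higher and 6.31% lower. Between 8 and 34 weeks Cbr2 was called lower (log2 -1.59, SE 0.56, adjusted p = 0.0297), beside 15.9% of all genes lower and 13% higher. The call of Cbr2 was lost without any of 8 week CD mice 1, 2 or 3, 8 week HFD mouse 6 or 34 week HFD mouse 3 (adjusted p = 0.0586 to 0.0628), and without 34 week CD mice 2 and 5 together (adjusted p = 0.0693).

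In CD mice the markers rose and fell with time as well. From 8 to 20 weeks all 9 log2 fold changes were positive, at 0.92 to 1.53, but limma called 0, with 8 at an unadjusted p under 0.05, 0 in edgeR and 1 in DESeq2 (background 1.7% higher and 1.88% lower). Cd163 came closest (1.53, SE 0.45, adjusted p = 0.0503). From 20 to 34 weeks the 3 C1q genes rose by 1.35 to 1.54 on the log2 scale (adjusted p = 0.00414 to 0.00896), beside 41.1% of all genes called higher. Cd163 (-1.58, SE 0.42, adjusted p = 0.00170) and Lyve1 (-1.63, SE 0.49, adjusted p = 0.00469) fell, beside 21.4% called lower. Without 34 week CD mice 2 and 5, which hold the most core macrophage reads of their group, C1qa (adjusted p = 0.0813) and C1qc (adjusted p = 0.0873) were no longer called. From 8 to 34 weeks 6 markers rose in CD mice, beside 40.1% of all genes, and 0 fell, beside 24.6%. They were the C1q genes (2.45 to 2.66), Mrc1 (1.27, adjusted p = 0.0115), Folr2 (1.61, adjusted p = 0.00306) and Cbr2 (1.61, adjusted p = 0.000449). Mrc1 was not called without mice 2 and 5 (0.76, adjusted p = 0.0966).

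In HFD mice 4 markers rose from 8 to 20 weeks, beside 21.2% of all genes, and 0 fell, beside 15.3%. These were C1qa (1.75), C1qb (1.89), C1qc (1.96) and Folr2 (1.46), with adjusted p from 0.00199 to 0.0211, and Folr2 missed the threshold without 20 week HFD mouse 5 (adjusted p = 0.0541). From 20 to 34 weeks limma called 0, with 1 at an unadjusted p under 0.05, 0 in edgeR and 1 in DESeq2, beside 17.8% of all genes higher and 12.5% lower. From 8 to 34 weeks the C1q genes rose by 2.70 to 2.81, Mrc1 by 1.36 (adjusted p = 0.0144) and Folr2 by 2.09 (adjusted p = 0.000716), beside 31.7% of all genes called higher. Over the same span Cd163 (-1.54, SE 0.45, adjusted p = 0.00480) and Lyve1 (-2.17, SE 0.53, adjusted p = 0.000905) fell, beside 20.8% called lower. The mean of Lyve1 was 32.4 ± 9.09 CPM at 8 weeks and 6.90 ± 4.05 at 34 weeks (SD, n = 6 each). These 2 groups did not overlap, but the share of all genes that separate between them was not counted.

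The markers were then set against macrophage RNA in the same mouse, by subtracting the mean log2(CPM + 1) of the 13 core macrophage genes from every gene. The core genes themselves rose with HFD, 10, 13 and 13 of 13 called higher at 8, 20 and 34 weeks with medians of 1.75, 2.82 and 1.73, so that on this scale most genes fell. At 8 weeks 0 of 9 markers were called, with 0 at an unadjusted p under 0.05, where 82.4% of all genes were called lower and 0.512% higher. At 20 weeks 6 markers were called lower (93.8% of all genes) and 0 higher (0.899%), namely Cd163 (-4.06, SE 0.47), Lyve1 (-3.84, SE 0.54), F13a1 (-3.31, SE 0.42), Cbr2 (-3.15, SE 0.39), Mrc1 (-1.72, SE 0.31) and Folr2 (-1.01, SE 0.38). At 34 weeks 4 were called lower (88.8% of all genes) and 0 higher (0.59%), namely Cd163 (-2.43), Cbr2 (-2.39), Lyve1 (-2.19) and F13a1 (-1.89). The shares called lower among the markers were below those of all genes, so these counts by themselves set the markers apart from the core genes and not from other genes. C1qa, C1qb and C1qc were not called at any of the 3 times in this fit. That did not hold in a fit that weights each mouse (array weights). It called all 9 markers lower at 20 weeks, the C1q genes among them, beside 96.1% of all genes.

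With the core mean as a covariate of the fit in place of the subtraction, all genes were no longer moved together. At 20 weeks 5 of 9 markers were then called lower, where 5.67% of all genes were, and at 34 weeks 3 of 9, where 3.14% were. The 5 at 20 weeks were Cd163 (-2.68, adjusted p = 0.00130), F13a1 (-2.50, adjusted p = 0.000890), Lyve1 (-2.36, adjusted p = 0.0153), Cbr2 (-2.05, adjusted p = 0.00111) and Mrc1 (-1.44, adjusted p = 0.000414). Those at 34 weeks were Cbr2 (-1.72, adjusted p = 0.00103), Cd163 (-1.60, adjusted p = 0.0181) and F13a1 (-1.41, adjusted p = 0.0199). At 8 weeks 0 were called, where 14.3% of all genes were lower and 19.2% higher. The covariate is itself changed by the diet, and at 20 weeks the sums of core genes did not overlap between CD (297 to 2574 CPM) and HFD mice (4293 to 8364 CPM), so these values rest on the slope carried between the groups. Lyve1 at 34 weeks (-1.29, adjusted p = 0.127) and Folr2 at 20 weeks (-0.50, adjusted p = 0.446), called lower by subtraction, were not called with the covariate.

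**Figure D3:**
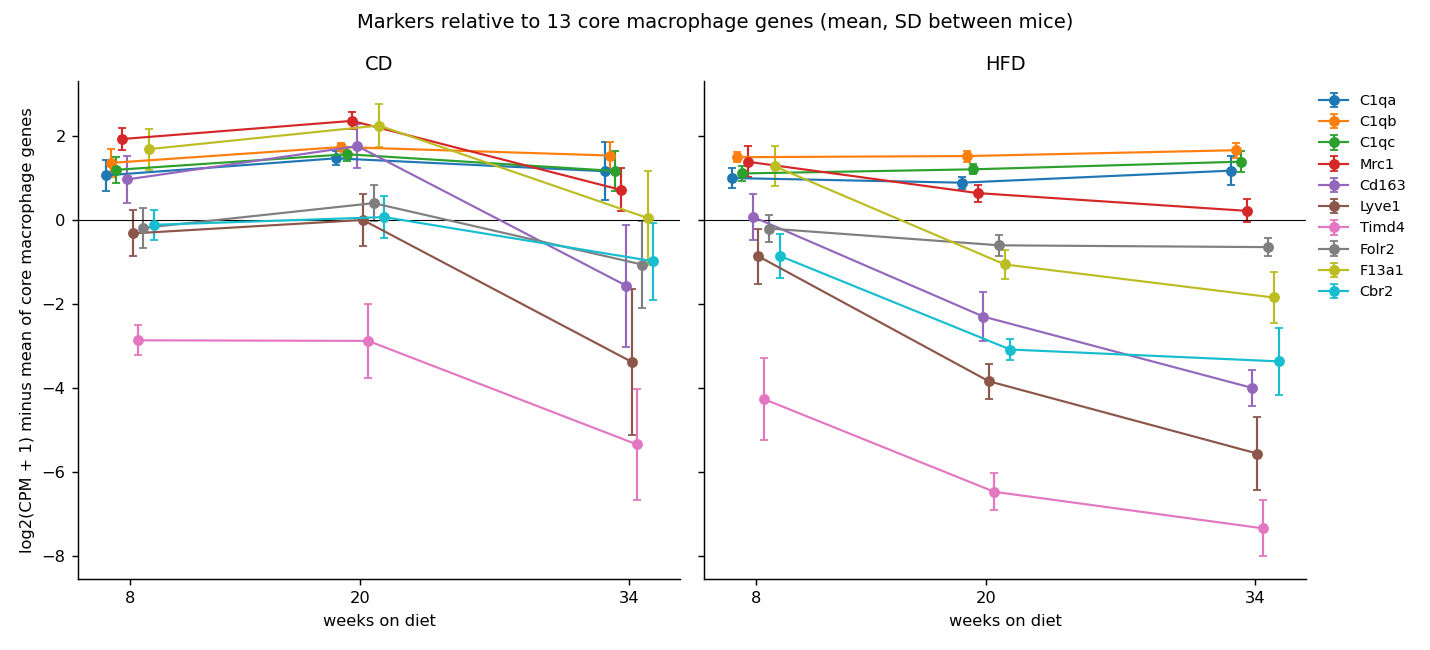
Mean log2(CPM + 1) of each marker minus the mean of 13 core macrophage genes in the same mouse, by weeks on diet, for CD (left) and HFD mice (right), with SD between mice as bars. The 3 C1q genes stay between 0.88 and 1.73 in all 6 groups, while Cd163 runs from 1.75 in 20 week CD mice to -4.01 in 34 week HFD mice.

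The parting of Cd163 from C1qb was seen in single mice. The ratio of Cd163 to C1qb CPM was 0.506 to 1.17 (median 0.740) in CD and 0.237 to 0.592 (median 0.373) in HFD mice at 8 weeks. At 20 weeks it was 0.558 to 1.49 (median 1.05) in CD and 0.0479 to 0.117 (median 0.0656) in HFD mice. At 34 weeks it was 0.0392 to 0.476 (median 0.0894) in CD and 0.0130 to 0.0263 (median 0.0204) in HFD mice. The diets overlapped at 8 weeks and did not at 20 and 34 weeks. C1qb alone was also without overlap at 20 weeks, while Cd163 alone overlapped at every time. How many other genes separate the diets in a ratio to C1qb was not examined. The ratio of Mrc1 to C1qb moved less, from 1.55 ± 0.145 to 0.545 ± 0.0701 (SD, n = 6 each) between CD and HFD mice at 20 weeks, and that of Folr2 to C1qb from 0.400 ± 0.0872 to 0.229 ± 0.0261. For F13a1 the means were 1.49 ± 0.425 and 0.168 ± 0.0313, and for Cbr2 0.320 ± 0.0873 and 0.0398 ± 0.00666. These ratios were not tested.

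**Figure D4:**
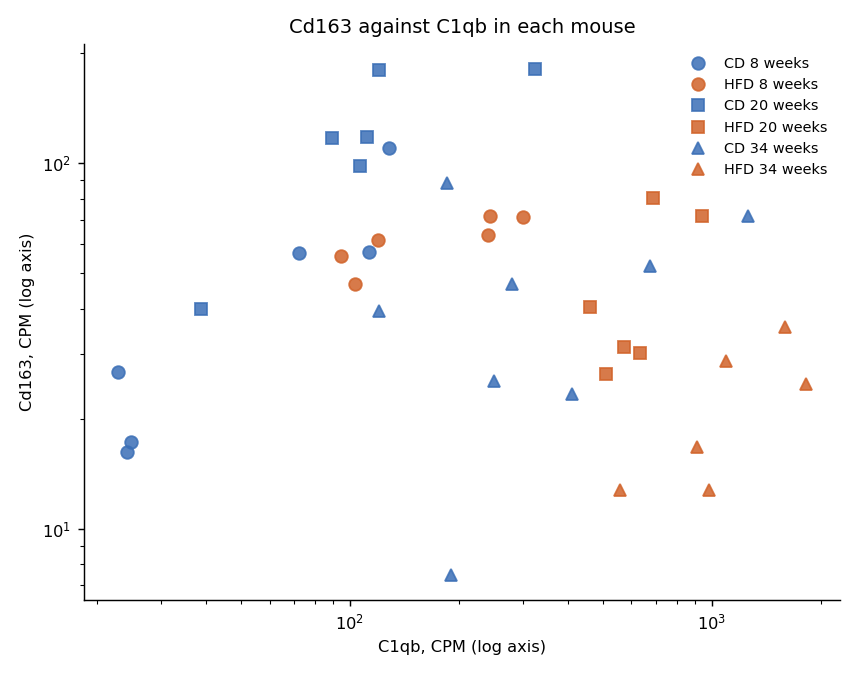
Cd163 against C1qb in each of the 38 mice, in CPM on log axes, with CD mice in blue, HFD mice in orange and the time on diet given by the symbol. The 6 HFD mice at 20 weeks have 462 to 937 CPM of C1qb and 26.6 to 80.4 CPM of Cd163, and the 6 CD mice at 20 weeks have 38.7 to 324 and 40.0 to 181 CPM.

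Within groups the markers varied together from mouse to mouse. Pearson's r of the deviations of log2(CPM + 1) from the group mean, over 38 mice, was 0.964 to 0.985 among the C1q genes, 0.943 between F13a1 and Cbr2, and 0.840 between Cd163 and Lyve1. The core macrophage mean correlated at 0.966 with C1qb, 0.922 with Mrc1, 0.787 with Folr2, 0.699 with Cbr2, 0.696 with F13a1, 0.517 with Cd163, 0.412 with Lyve1 and 0.339 with Timd4. The mean of 10 adipocyte genes correlated at -0.131 (Timd4) to -0.645 (C1qc). These correlations are descriptions, since the values of a mouse share 1 library with a fixed sum, and reads per mouse are few for Timd4.

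**Figure D5:**
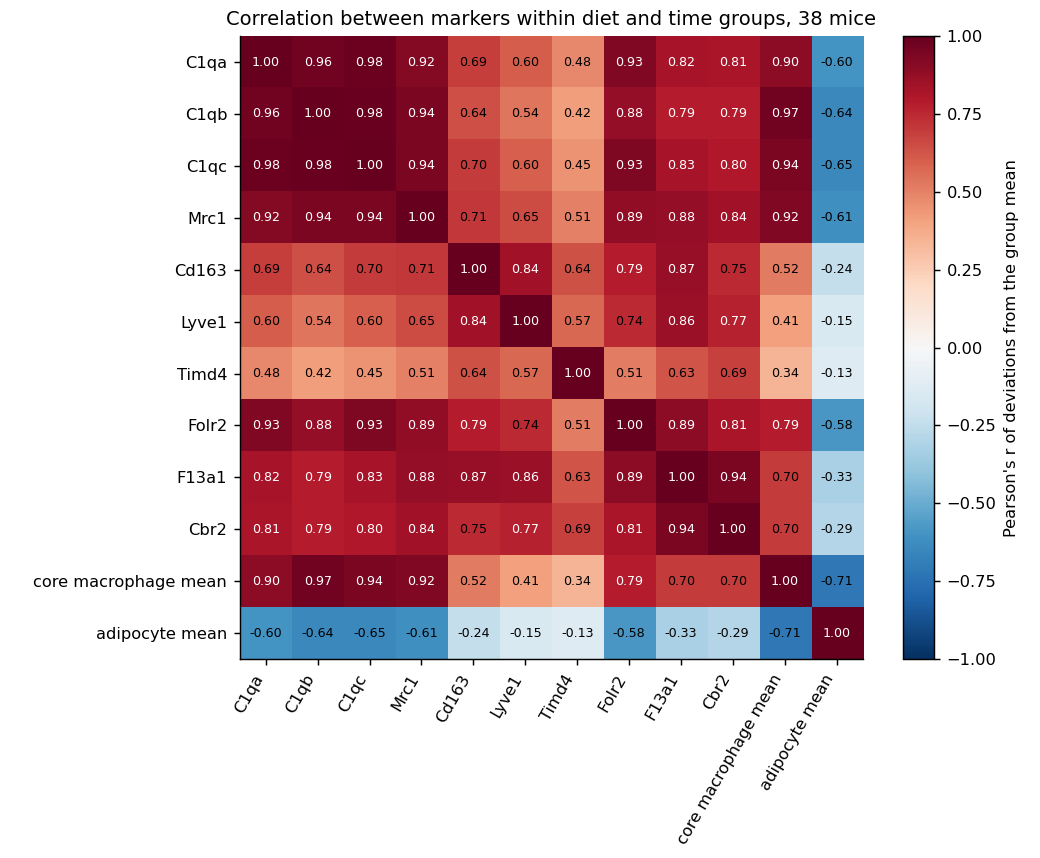
Pearson's r between markers, and with the means of core macrophage and adipocyte genes, of deviations of log2(CPM + 1) from the diet and time group mean over 38 mice. The C1q block and Mrc1 are the most correlated with the core macrophage mean (0.896 to 0.966), and Lyve1 and Timd4 the least (0.412 and 0.339).

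Expressed per kilobase of exon, the markers differed widely in level. The medians over all mice were 228 CPM per kb for C1qb, 160 for C1qa, 95.5 for C1qc, 35.6 for Folr2, 29.9 for Mrc1, 25.5 for Cbr2, 16.3 for F13a1, 8.56 for Cd163, 4.85 for Lyve1 and 0.891 for Timd4. These medians pool the 6 groups, and the order changed between them. In 8 week CD mice the means per kb were 16.6 for Cbr2, 14.6 for Mrc1 and 13.3 for Folr2, and in 20 week CD mice 31.6 for Mrc1 and 30.2 for Folr2. No test was run on the order.

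Of all genes tested that are not markers, Ms4a6b (r = 0.932), Stard8 (0.921) and Frmd4b (0.912) had the pattern over the 38 mice most like the mean of the 9 markers. Fcgr3, an Fc receptor of macrophages, was most like C1qb (0.993), Ly86 most like C1qa (0.980) and Evi2a most like C1qc (0.987). Dab2 was most like Mrc1 (0.958). For Cd163 and Lyve1 the most alike genes were lectins of the Cd209 family, Cd209b (0.897) with Cd163 and Cd209f (0.896) with Lyve1. Fcna, a ficolin, was most like Cbr2 (0.876), Susd1 most like F13a1 (0.862), D17H6S56E-5 most like Folr2 (0.964) and Serpinb2 most like Timd4 (0.734).

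Among 19 other genes of resident macrophages, 5 were higher and 1 lower at 8 weeks, 6 and 5 at 20 weeks, and 4 and 2 at 34 weeks, with median log2 fold changes of 0.82, 0.00 and -0.43. Of all genes tested 29.8%, 38.3% and 27.5% were called higher and 15.1%, 18.7% and 15.7% lower at these times, so the shares called higher were not above those of all genes. The highest at 20 weeks were Ms4a7 (2.56, adjusted p = 7.27e-05) and Cd5l (2.41, adjusted p = 0.00352), and the lowest were Cd209f (-1.54, adjusted p = 0.0225) and Cd209g (-1.41, adjusted p = 0.0133). Set against the core genes by subtraction, 17 of these 19 were called lower at 20 weeks and 15 at 34 weeks, shares below the 93.8% and 88.8% of all genes. Of 12 genes that mark lipid-associated macrophages, a state that gathers around dying adipocytes, 9, 11 and 9 were higher at 8, 20 and 34 weeks, led at 20 weeks by Gpnmb (6.66) and Mmp12 (5.78), while Lpl (-0.40, adjusted p = 0.0314), which adipocytes also express, was lower and Cd63 (0.57) rose least. Of the core genes, Mpeg1 (4.00) and Tyrobp (3.77) rose most at 20 weeks, and Aif1 rose by 1.37.

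Of 11 other genes of complement, 4 were higher and 4 lower at 8 weeks, 5 and 2 at 20 weeks, and 4 and 1 at 34 weeks, where the shares of all genes were those given for the resident genes. At 20 weeks Itgb2, a subunit of complement receptor 3 (3.57, adjusted p = 1.25e-06), and C3ar1, the receptor of C3a (2.27, adjusted p = 0.000119), were the highest. C2 (-1.55, adjusted p = 5.18e-05), the protease cleaved by C1s, and C3 (-0.85, adjusted p = 0.0375) were the lowest.

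Markers of other cells also differed between diets, where 38.3% of all genes were called higher and 18.7% lower at 20 weeks. At that time 7 of 7 progenitor and fibroblast genes were higher, led by Col1a1 (3.66) and Lum (3.21), with Dcn (1.26) and Dpp4 (0.94) lowest, and 6 of 8 blood endothelial genes were higher, led by Pecam1 (1.28) and Cdh5 (1.28), with Emcn (0.60, adjusted p = 0.115) and Fabp4 (-0.21, adjusted p = 0.361) lowest. All 3 monocyte genes tested were higher at 20 weeks, F10 (1.97), Vcan (1.77) and Ccr2 (1.10). Of 10 adipocyte genes 8 were lower there, with Cfd (-4.03) and Retn (-1.92) lowest, and Lep (2.90) higher, while Pparg (-0.05, adjusted p = 0.808) was not called. Of the mesothelial genes Msln (0.43), Upk3b (0.34) and Lrrn4 (-0.01) and of mast cell and neutrophil genes S100a8 (0.76) and Kit (-0.13) were not called at 20 weeks. T cell, B cell and epididymis genes summed to at most 4.53, 5.90 and 9.17 CPM in any mouse and none passed the filter. The part of these cells in the changes of the markers was not tested.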

How the data were processed

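RNA of the adipocyte fraction of 38 mice was examined. Per the labels and methods, the authors aligned reads to mm10 with STAR, counted exons of GENCODE vM2 with featureCounts, and discarded genes without an Entrez identifier. The deposited values are CPM, made by the authors with technical replicates merged. The paper describes TMM factors behind its CPM values. Since each column sums to 1000000, the values were read as plain CPM, and TMM scaling was run as an alternative. The main calls and shares of all genes are therefore not on the scale that the paper describes. All values were whole multiples of 1 read (tolerance 0.1 reads), and these reads were used for edgeR 4.0.16 and DESeq2 1.42.0 as alternatives. The main test was limma 3.58.1 in R 4.3.3, with a mean-variance trend, two-sided, on log2(CPM + 1). Mice are separate animals. Positions follow GRCm38 annotation, and exon overlaps GENCODE vM21. The markers and all gene lists were chosen with earlier results of these data known. All markers are named, and of other lists the 2 highest and 2 lowest genes at 20 weeks, plus the genes most correlated with each marker. A gene that this rule names, and a planned motif, are not reported here. Adgre1, Selenop, Chil3 and C1s1 were not analysed here. Intervals of counting error were not used, since the spread between mice was larger.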

Additional observations from a re-analysis of the deposited data

Results flagged for a closer look

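Of 60 sets of mice (10 markers in 6 groups) examined for a value far from the others, 11 held such a mouse. The rule set the gap to the next mouse against the range of the group, in CPM without logs. All values it flagged were the highest of their group. Its chance rate of about 1 in 20 holds for normally spread values, and the log scale was not examined. The count of 11 is therefore not read as an excess over chance. The markers are not independent here, since 4 mice account for all of these values. CD mouse 5 at 34 weeks stood apart for C1qa (1355 CPM), C1qc (1167), Mrc1 (837), Folr2 (411) and F13a1 (529). CD mouse 1 at 20 weeks stood apart for C1qa (234 CPM), C1qb (324), C1qc (252) and Mrc1 (454). HFD mouse 5 at 20 weeks stood apart for Folr2 (240 CPM), and HFD mouse 2 at 34 weeks for Lyve1 (14.7 CPM). Both CD mice also held the most core macrophage reads of their groups, 10687 CPM in mouse 5 at 34 weeks and 2574 CPM in mouse 1 at 20 weeks.

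The diet difference of Cbr2 differed between 34 and 8 weeks, with an interaction term of -1.59 on the log2 scale (limma, adjusted p = 0.0297). It was the only call among 27 such terms of 9 markers and 3 pairs of times.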

How the results depend on the processing

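For 76 differences of single markers (HFD against CD, the called values of the other comparisons, and those at 20 against 8 weeks that the text names), other settings gave 3581 values, of which 3450 kept their direction and side of the threshold, 85 passed it newly, 41 no longer passed it and 5 changed sign, and of 705 counts of markers called 653 stayed within 1.5 times. Many of the 3581 values leave out a mouse outside the groups compared. That keeps the log2 fold change and alters only the spread shared by all groups, so the share that kept direction does not measure robustness. Of 62 further differences that were not called, 22 changed sign under at least 1 setting. The 5 values that changed sign were of markers not called. Timd4 at 8 weeks was -0.022 without CD mouse 2 (range -0.022 to 0.34 with each mouse left out) and 0.025 at 34 weeks with array weights. F13a1 at 34 weeks was 0.10 with array weights, 0.20 without CD mice 2 and 5 (chosen after seeing the data), and -0.56 to 0.058 with each mouse left out, 0.058 without CD mouse 5.

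For HFD against CD, edgeR called 2 markers and array weights 8 at 8 weeks (main value 5), and array weights 8 at 20 weeks (5). For the diet difference at 20 against 8 weeks (0), TMM, median-of-ratios scaling and DESeq2 called 1 each, a fit of only the groups compared 3 and array weights 4. At 34 against 8 weeks (1), no filter, only the groups compared and leaving out CD mice 2 and 5 gave 0, and DESeq2 2. For CD at 20 against 8 weeks (0), TMM, median-of-ratios scaling, DESeq2 and the replicate block gave 1 each and array weights 8. For CD at 34 against 20 weeks (5), leaving out mice 2 and 5 gave 3. In HFD mice array weights gave 7 at 20 against 8 weeks (4), and at 34 against 20 weeks (0) DESeq2 gave 1, only the groups compared 5 and array weights 2. Relative to core genes, no filter and Csf1r with Cd68 as the core gave 1 each at 8 weeks (0), and array weights 7 at 34 weeks (4). The causes of these shifts were not tested.

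With each mouse left out, the counts for HFD against CD were 4 to 8, 5 to 7 and 4 to 6 at 8, 20 and 34 weeks, with 8 without 8 week CD mouse 5. For the diet differences they were 0 to 2 at 20 against 8 weeks (2 without 34 week CD mouse 5), 0 at 34 against 20 weeks, and 0 to 4 at 34 against 8 weeks (4 without 8 week CD mouse 5 or 34 week CD mouse 3). In CD mice they were 0 to 2 at 20 against 8 weeks (2 without 34 week CD mouse 5), 5 to 6 and 6 to 7, and in HFD mice 3 to 5, 0 to 1 (1 without 34 week CD mouse 3) and 7. Relative to core genes they were 0 to 2 at 8 weeks (2 without HFD mouse 1), 6 and 4. Mouse numbers share only a number between diets (correlations of deviations -0.509 to 0.529), and with the replicate block 4 markers were called at 34 weeks, without Mrc1. Timd4, with 3 to 66 reads a mouse, is the marker that depth limits most.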
